A study of Mus musculus with 38 samples.

Results

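Intracisternal A particle (IAP) elements are endogenous retroviruses (ERVs) that entered the mouse germline recently and are present in many copies. They were analysed here copy by copy in brain cells with and without Trim28. A row of the table of individual transposable elements (TEs) was taken as an IAP copy when its name began with IAP. This gave 28733 of 3494634 rows, of which 15008 were internal parts of the provirus (names ending in int or _I) and 13725 were long terminal repeats (LTRs). They carry 25 subfamily names, 10 internal and 15 LTR, and the same 25 names occur among the 1153 TE subfamilies of the TEtranscripts tables. At least 1 uniquely mapped read was found on 8420 of the copies in any of the 32 bulk RNA-seq libraries.

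An intact IAP provirus has an internal region with gag and pol genes between a pair of LTRs. Transcription starts in the 5′ LTR and the transcript is polyadenylated in the 3′ LTR. Trim28 (also called KAP1) is a corepressor that KRAB zinc finger proteins bring to ERVs, where it recruits Setdb1, the enzyme that deposits H3K9me3. In somatic tissue IAPs are also silenced by DNA methylation.

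The 5 experiments compared Trim28-KO with control libraries. Neural progenitor cell (NPC) cultures were derived from embryonic day 13.5 forebrain of Rosa26 Cas9-GFP knock-in mice. They received lentiviral guide RNAs that cut Trim28 in its exon 3 (g3), exon 4 (g4) or exon 13 (g13), with 2 cultures for each guide and 6 KO cultures in all, or a guide to lacZ (2 controls). The cultures form a first and a second series by their numbers, each with 1 control and 1 culture per guide. RFP+ cells were sorted 10 days after transduction. In adult Cas9-GFP mice, and in Stop-Cas9-GFP mice in which Cas9 is induced by AAV-delivered Cre under the synapsin promoter, AAV vectors brought the same guides or lacZ into the brain, and RFP+ nuclei were sorted after 2 months. Each of these lines gave 4 KO libraries (g3, g4, g13 and all 3 guides) and 1 control. Trim28-flox mice that received AAV Syn-Cre gave 4 libraries of sorted nuclei labelled KO and 4 labelled control, again after 2 months. The study describes these mice as Trim28-flox (+/-) and (+/+), with AAV vectors for Cre and for nuclear GFP, and names the (+/+) mice as KO. In the last experiment the cortex of 3-month-old Emx1-Cre (+/-), Trim28-fl (+/+) mice (3 KO) was compared with that of Emx1-Cre (+/-), Trim28-fl (+/-) mice (3 controls), so these controls also carried Cre and 1 floxed allele. Emx1-Cre acts in cortical progenitors from which excitatory neurons and glia derive, whereas the AAV experiments targeted mature neurons. The synapsin promoter confines the reporter or Cre to neurons, and a cortex sample also holds cells outside the Emx1 lineage. The AAV injections were into the forebrain, and the methods for the Cas9 knock-in mice give the striatum. Brain region, RNA source (sorted nuclei or whole tissue) and time of deletion therefore differ together between these nuclei and the cortex. Their parts cannot be told apart.

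Libraries held between 8790346 and 25345083 reads on genes and between 782698 and 3538360 uniquely mapped reads on TE copies. Trim28 itself was checked in every library, in CPM (counts-per-million of gene reads). In the NPCs it was 36.8 to 73.5 CPM in the 6 KO cultures (median 47.8) against 157 and 204 in the controls, and in the Emx1-Cre cortex it was 6.07, 8.52 and 8.86 against 20.8, 19.0 and 21.4. Both decreases passed the test across all genes (edgeR log2 fold change -1.82 ± 0.25 SE, adjusted p = 0.0310, and -1.39 ± 0.15, adjusted p = 3.78e-04). In Cas9-GFP nuclei the KO libraries had 93.7 to 105 CPM against 143, and in Stop-Cas9-GFP nuclei 88.4 to 127 against 105; neither difference passed the test. In the Trim28-flox nuclei the 4 libraries labelled KO had 130 to 146 CPM and the 4 labelled control 25.6 to 31.6 CPM (edgeR log2 fold change 2.26 ± 0.10, adjusted p = 2.74e-06), so Trim28 goes against the labels there and each direction given below for that experiment is that of the labels. Indels made by Cas9 need not lower the mRNA.

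The summed level of the 5 progenitor markers (Nes, Sox2, Vim, Hes5, Fabp7) was 3243 to 6611 CPM in the NPC libraries and 2.04 to 8.64 CPM in the adult neuronal nuclei. The 5 neuron markers summed to 1627 to 2909 CPM in those nuclei and to 7823 to 9365 CPM in the cortex. In the NPC libraries the neuron markers summed to 1094 to 1768 CPM, which overlaps the range of the nuclei. NPC astrocyte markers, at 1376 to 2353 CPM, were above those of the cortex. The cortex also contained oligodendrocyte (2094 to 2812 CPM), astrocyte (860 to 1102 CPM) and microglia (173 to 225 CPM) markers, and there the KO libraries had fewer oligodendrocyte marker reads (2094 to 2266 against 2606 to 2812 CPM), fewer endothelial (97.7 to 121 against 126 to 141 CPM) and meningeal fibroblast marker reads (9.71 to 17.1 against 22.4 to 27.5 CPM) and more progenitor marker reads (111 to 141 against 87.3 to 93.9 CPM). Of the 35 marker genes, Fabp7 was higher (log2 fold change 1.02 ± 0.14, adjusted p = 1.90e-03) and Col1a2 lower (-1.08 ± 0.21, adjusted p = 0.0244) in the KO cortex by edgeR, and none was called in the other experiments. Of all genes tested in the cortex, 0.86% were called higher and 0.467% lower. How often sums of other genes separate these groups was not computed. The part of these differences in the cortex results was not tested. In bulk samples fewer cells of a type and less RNA per cell cannot be told apart.

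Sequences are shown for 3 proviruses that were upregulated in both NPCs and cortex. Of the proviruses with LTRs at both ends and a copy called in both experiments, they had the largest NPC log2 fold changes. They were silent or nearly so in the controls of both experiments. IAP1-MM_I-int_dup462 had a larger NPC log2 fold change (8.03) but lies in a locus with an LTR at 1 end, and is not shown. All positions are on GRCm38, from whose genome sequence the bases were read, and each sequence is written 5′ to 3′ along the provirus. The first set is the 5′ LTR, from which transcription of a provirus starts. IAP1-MM_LTR_dup223 lies at chr9:109514849-109515140 on the minus strand, IAP1-MM_LTR_dup136 at chr6:90292370-90292652 on the plus strand, and the last 300 of the 353 bases of IAPLTR1_Mm_dup723 at chr8:120199364-120199663 on the minus strand. Capitals mark CCAAT boxes (CCAAT on either strand), the cAMP response element core TGACGTC (either strand, so that overlapping matches merge) and the polyadenylation signal AATAAA (sense strand).
IAP1-MM_LTR_dup223: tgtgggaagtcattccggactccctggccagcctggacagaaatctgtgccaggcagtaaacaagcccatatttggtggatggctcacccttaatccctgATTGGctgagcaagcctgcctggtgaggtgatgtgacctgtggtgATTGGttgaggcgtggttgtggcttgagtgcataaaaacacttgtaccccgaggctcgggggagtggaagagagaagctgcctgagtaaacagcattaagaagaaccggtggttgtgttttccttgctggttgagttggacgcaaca
IAP1-MM_LTR_dup136: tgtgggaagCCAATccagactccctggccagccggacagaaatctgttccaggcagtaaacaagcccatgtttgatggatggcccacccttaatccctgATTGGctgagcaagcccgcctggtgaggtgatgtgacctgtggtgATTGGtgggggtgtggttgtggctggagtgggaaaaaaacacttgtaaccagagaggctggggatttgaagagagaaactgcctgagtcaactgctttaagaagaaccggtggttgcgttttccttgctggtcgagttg
IAPLTR1_Mm_dup723: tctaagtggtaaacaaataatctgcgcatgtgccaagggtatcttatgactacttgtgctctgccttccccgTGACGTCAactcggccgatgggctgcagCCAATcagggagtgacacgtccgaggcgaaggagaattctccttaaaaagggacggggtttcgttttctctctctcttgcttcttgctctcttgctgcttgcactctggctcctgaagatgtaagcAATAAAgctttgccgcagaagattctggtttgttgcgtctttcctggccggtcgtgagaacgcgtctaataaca

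The IAP1-MM LTRs had 2 and 3 CCAAT matches and no match to TGACGTC or AATAAA, whereas the printed part of the IAPLTR1_Mm LTR had 1 CCAAT, 2 overlapping TGACGTC and 1 AATAAA. Among the 11601 IAP LTR copies of 250 to 450 bases, 70.1% held CCAAT, 20.8% TGACGTC and 81.8% AATAAA. For the 373 IAP1-MM_LTR copies in that length range the shares were 99.5%, 0% and 6.4%, and for the 1432 IAPLTR1_Mm copies 99.9%, 79.6% and 99.9%. A match describes the letters only. The 5′ and 3′ LTRs of the chr8 provirus were identical (353 of 353 positions), while those of the chr9 and chr6 proviruses shared 88.4% and 92.5% of aligned positions. LTRs of a provirus are identical when it integrates and diverge afterwards. The 5′ LTRs of the chr9 and chr6 proviruses shared 86.7% of positions with each other but 52.8% and 50.8% with IAPLTR1_Mm_dup723.

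The second set is the first 30 bases of the internal part directly after these LTRs, shown because reverse transcription of a retrovirus is primed by a tRNA that binds there. They lie at chr9:109514819-109514848 (minus), chr6:90292653-90292682 (plus) and chr8:120199334-120199363 (minus). Capitals mark the 18 bases from the first TGGTG. Primer binding sites of retroviruses usually begin with TGG, which pairs with the end of the tRNA, and the letters after it depend on the tRNA used.
IAP1-MM_I-int_dup254: agTGGTGTGAAACCTGGGAAcagactcccc
IAP1-MM_I-int_dup143: TGGTGCCGAAATCCGGGAaccgactcccca
IAPEz-int_dup3067: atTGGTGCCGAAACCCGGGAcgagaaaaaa

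Aligned to the IAPEz window, the chr6 IAP1-MM window differed in 1 of 18 columns and the chr9 window in 4 of 19. TGGTG was present in the first 30 bases of 3320 of 4505 internal rows that follow a 5′ LTR (73.7%).

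IAP reads as a whole were higher in every KO cortex and every KO NPC culture than in their controls. Of the adult neuron experiments, the flox and Stop-Cas9-GFP groups overlapped, while every Cas9-GFP KO library was above the single control. In the Emx1-Cre cortex the uniquely mapped reads summed over all IAP copies were 640, 673 and 709 CPM in the KO animals and 369, 375 and 394 CPM in the controls. The groups did not overlap, and the difference of the mean log2 CPM was 0.83 (exact permutation test, two-sided, p = 0.1, the smallest that 3 against 3 allows). IAP copies took 1.05 to 1.11% of the unique TE reads in the KO cortex and 0.635 to 0.643% in the controls.

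In NPCs the sum was 359 to 962 CPM in the KO cultures, with a median of 457, against 311 and 325 CPM in the controls. Each KO culture was above both controls, but the size rested on the g3 culture of the first series, at 962 CPM, while the next was at 534. The difference was 0.65 on the log2 scale with all cultures (exact permutation test, two-sided, p = 0.143, where 0.0357 is the smallest possible) and 0.46 without that culture (p = 0.0476 by the same exact test, the smallest then possible). That culture was left out because of its value, so the second p cannot be read as a test. In Cas9-GFP nuclei the KO libraries had 1001 to 1238 CPM and the control 880 (difference 0.34, exact p = 0.2, the smallest possible), and in Stop-Cas9-GFP nuclei 1155 to 1588 against 1313 (difference -0.03, exact p = 1). With 1 control library, the spread of the controls could not be seen in either line. In the Trim28-flox nuclei the libraries labelled KO had 876.2 to 1087 CPM and those labelled control 871 to 968 (difference 0.09 in the direction of the labels, exact p = 0.314), so the groups overlapped.

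**Figure D1:**
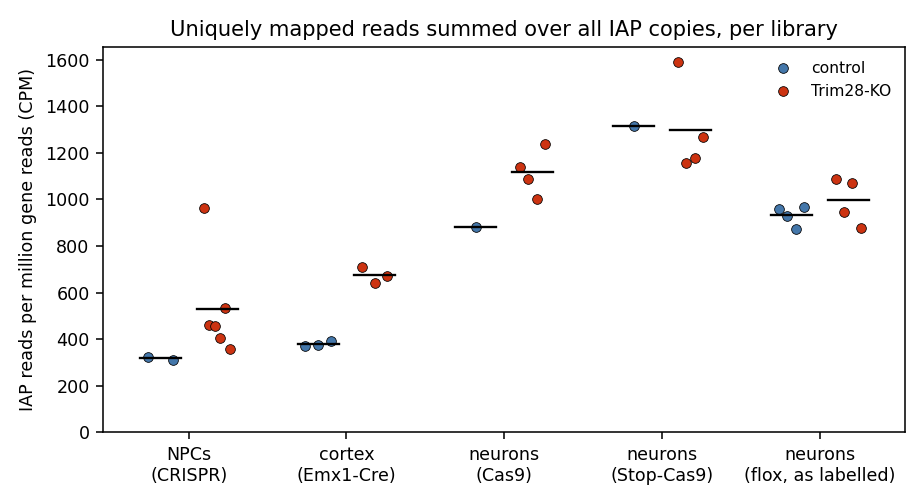
Uniquely mapped reads summed over all 28733 IAP copies, in CPM of gene reads, with 1 point per library and a line at the group mean; KO and control libraries of the 5 experiments stand side by side, and the Trim28-flox groups are as labelled. The 3 KO cortex libraries lie at 640 to 709 CPM, above controls at 369 to 394, and the g3 NPC culture of the first series stands alone at 962.

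The copies were then tested singly. A copy was called when its adjusted p was under 0.05 over all TE copies tested and its log2 fold change was beyond 0.5 in either direction. Because most copies had no or few reads, 149 IAP copies could be tested in the cortex and 182 in the NPCs. In the cortex 54 of the 149 were upregulated, where 2.67% of all 14556 TE copies tested were, and none was called downregulated (0.254% of all). With a filter of at least 10 reads summed over the libraries instead, 125 cortex copies were called. IAPs made up 13.9% of all upregulated TE copies in the cortex. In the NPCs 15 of the 182 were upregulated against 0.55% of all 35091 copies tested, again with none called downregulated (0% of all), and IAPs made up 7.77% of the upregulated copies. When the 2 series entered the fit as a replicate block, 32 NPC copies were called, while DESeq2 called 27 and the filter of at least 10 reads gave 25. Under these alternatives the share of all TE copies called was not computed, in NPCs or in cortex. Copies with no read in any control, 10 of the 149 and 15 of the 182, could pass the filter only through the KO libraries, and 10 of them were called in each experiment.

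Every KO library lay above every control for 67 IAP copies in the cortex (7.48% of all TE copies tested did so) and for 44 in the NPCs (5.63%), and below every control for 3 (5.7%) and 1 (1.09%). At an unadjusted p under 0.05, 65 were higher in the KO cortex (5.5% of all) and 48 in the KO NPCs (4.27%), while 2 (2.74%) and 0 (0.345%) were lower. The median log2 fold change of the IAP copies tested was 0.50 in the cortex, where that of all copies was 0.01, and 0.72 in the NPCs, where it was 0.20. These medians did not move when copies with no control read were set at their bound. Internal parts carried most calls, with 49 of 126 in the cortex and 12 of 136 in the NPCs, while LTR rows gave 5 of 23 and 3 of 46. The NPC calls depended on the pair of controls: without the control of the first series there were 6 and without that of the second 7, all among the 15, and without the g3 culture of the first series there were 23, which included the 15.

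By subfamily, IAP1-MM supplied most calls in the NPCs. In the cortex IAPEz-int supplied most, but it also made up 99 of the 149 IAP copies tested. Of all IAP copies tested, 36.2% were called in the cortex and 8.24% in the NPCs. Whether the share called of a name differed between NPCs and cortex was not tested. IAP1-MM supplied 12 of the 15 NPC calls, 9 of 23 tested IAP1-MM_I-int copies and 3 of 7 tested IAP1-MM_LTR copies. The other 3 were 1 of 16 IAPEY4_I-int, 1 of 88 IAPEz-int and 1 of 3 IAPLTR3-int copies. In the cortex IAPEz-int, the most numerous internal name with 7319 copies, gave 34 of the 54 calls out of 99 tested. IAP1-MM_I-int gave 11 of 14 and IAP1-MM_LTR 2 of 2. The remaining calls were 2 of 3 IAPLTR3-int copies and 1 copy each of IAP-d-int, IAPEY4_I-int, IAPLTR1_Mm, IAPLTR1a_Mm and IAPLTR2_Mm.

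**Figure D2:**
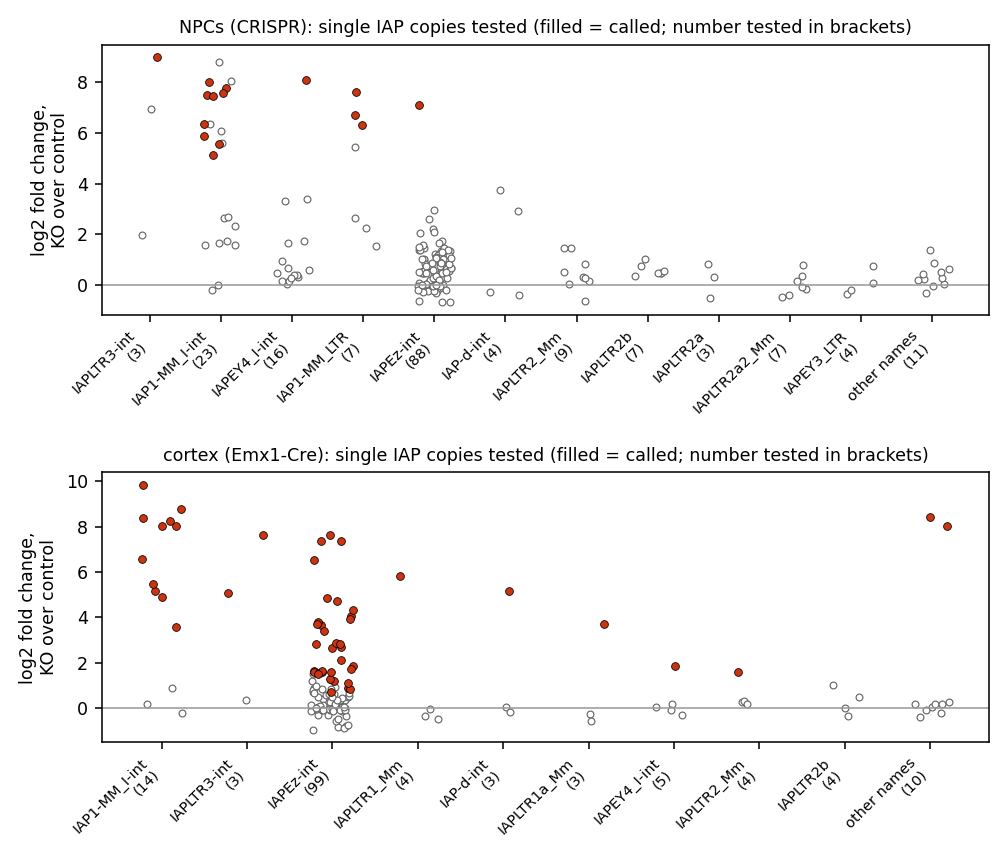
Log2 fold change (KO over control) of each IAP copy tested, by subfamily name, in NPCs and in the Emx1-Cre cortex; filled points were called, open points were not, and the number tested is in brackets; where a copy had no control read, its fitted value depends on the prior count. IAP1-MM_I-int holds 9 called copies of 23 in the NPC panel and 11 of 14 in the cortex panel, and called IAPEz-int copies are frequent in the cortex (34 of 99) and rare in the NPCs (1 of 88).

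Most IAP copies tested, called or not, lay in proviruses with LTRs at both ends. IAP rows on the same strand within 500 bases of each other were joined into 10940 loci, of which 3559 had an internal part with an LTR at both ends. Of the 54 copies called in the cortex, 48 (88.9%) lay in such loci, as did 73 of the 95 copies tested and not called (76.8%). In the NPCs 12 of the 15 called (80%) and 132 of the 182 tested (72.5%) did. Annotated exons overlapped 2 of the 54, introns 18, and 34 were intergenic. Of the 95 not called, 25 overlapped an exon, 34 an intron and 36 were intergenic. Of the 49 internal copies called, 17 were longer than 6 kb, as were 18 of the 77 internal copies tested and not called. These are descriptions of the rows that passed the filter, with no test.

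In the loci with LTRs at both ends and a called copy, reads lay on the internal part and the 3′ LTR rather than the 5′ LTR. The 40 such loci in the KO cortex held 29 reads on 5′ LTRs, 1290 on 3′ LTRs and 8181 on internal rows over the 3 libraries, and the controls held 27, 169 and 2228. The 7 such loci in the KO NPCs held 7, 540 and 2542 reads, and the controls 0, 2 and 9. All 3 LTR copies called in NPCs and 4 of the 5 called in cortex were the 3′ LTR of their locus. The other, IAPLTR2_Mm_dup944, was an LTR with no internal part joined to it. Reads that fall wholly within identical LTRs map to both and are not in these unique counts.

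A set of 6 copies was upregulated in both NPCs and cortex, which is 40% of the 15 NPC calls and 11.1% of the 54 cortex calls, and they belong to 5 loci. Of the 15 copies called in NPCs, these 6 passed the filter in the cortex. All 6 had 9 or fewer control reads in total, so they passed through the KO libraries, and that all 6 were called follows in part from the filter. Of the 54 copies called in cortex, 16 passed the filter in NPCs, 8 of them with no read in either control, and the other 38 did not pass it. Read without a filter, 11 of the 15 NPC copies had every KO cortex above every control, and 1 of the other 4 had no read there. Of all TE copies with at least 1 read in the cortex 1.91% did so, and of those that passed the filter 7.48%. Of the 54 cortex copies, 16 had every KO NPC culture above both controls, and 8 had no NPC read. The share was 1.12% of all copies with a read in NPCs and 5.63% of those that passed the filter. The experiments share no libraries.

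IAPEz-int_dup3067 is the longest of the 6, a 6420-base internal part between identical LTRs at chr8:120192944-120199363 (minus strand), in an intron of Gm20388 on the opposite strand. Its 5′ LTR and first internal bases are printed above. It had 391, 350 and 347 reads in the KO cortex and 3, 1 and 5 in the controls, or 18.1 to 27.5 CPM against 0.05 to 0.22 CPM. In NPCs it had 131 and 106 reads with g3, 78 and 56 with g4 and 82 and 15 with g13 (first and second series), and 0 and 1 in the controls. It was the called copy with the highest mean level in the KO cortex (22.6 CPM ± 4.71 SD, n = 3). The log2 fold change was 7.35 ± 0.29 SE in the cortex and 7.11 ± 0.89 in NPCs (edgeR adjusted p = 1.47e-03 in NPCs), and the NPC ratio of read rates was 185 with a 95% counting interval of 33.0 to 7314.

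IAP1-MM_I-int_dup253 (chr9:109510693-109514468, minus strand, intergenic) belongs to the chr9 provirus whose LTR is printed. It had 33, 34 and 37 reads in the KO cortex and 40, 22, 20, 27, 40 and 10 in the KO NPCs in the same order of cultures, and 0 reads in all 5 controls. Set against a floor of 3 counts in each control library, its mean CPM was at least 16.2-fold higher in the KO cortex and at least 10.1-fold higher in the KO NPCs. Its neighbour IAP1-MM_I-int_dup254, the first 197 bases of the same internal part, was also called in NPCs (edgeR adjusted p = 4.48e-03).

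The chr6 provirus gave 2 of the 6 copies, the internal IAP1-MM_I-int_dup144 (chr6:90293035-90296024, plus strand) and its 3′ LTR IAP1-MM_LTR_dup137 (chr6:90296025-90296316). The internal copy had 26, 30 and 38 reads in the KO cortex and 12 to 38 in the KO NPCs, the LTR had 32, 43 and 31 and 10 to 41, and all controls had 0. In the KO cortex the internal copy was at least 14.9-fold and the LTR at least 16.0-fold higher, and in the KO NPCs they were at least 8.37-fold and at least 9.30-fold higher. The last 95 of the 292 bases of the LTR overlap the single exon of Gm43891 (chr6:90296222-90299333), a transcript on the same strand whose annotation class (TEC) awaits experimental evidence, and reads there cannot be told apart. The first 197 bases of the LTR lie before the gene.

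Genes that start in or after this LTR were read in the same libraries. Gm43891, which starts inside it, had 3.19 to 11.5 CPM in the KO NPCs (median 7.72) and 8.57, 10.5 and 11.2 CPM in the KO cortex, with no read in any control of either experiment, and was upregulated in both (edgeR adjusted p = 0.0187 and 1.12e-06 across genes, where 0.176% and 0.86% of genes were called upregulated). BC048671, a protein-coding gene that starts 4903 bases downstream of the LTR, had 1.24 to 7.79 CPM in the KO NPCs and 0 in both controls, at least 21.3-fold higher, but did not pass the test (edgeR adjusted p = 0.0871). In the KO cortex it had 0.24 to 0.40 CPM against 0 and was too low to be tested. Neither gene had a read in the 18 libraries of adult neuronal nuclei.

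IAP1-MM_I-int_dup203 (chr7:34095924-34098966, minus strand) lies in an intron of Scgb1b30, a secretoglobin gene on the opposite strand. It had 403, 158, 79, 108, 152 and 67 reads in the KO NPCs and 2 and 4 in the controls, the highest mean level of the NPC calls (9.41 CPM ± 6.09 SD, n = 6) with the g3 culture of the first series at 21.5 CPM and the others at 5.15 to 8.73. In the cortex it had 58, 17 and 23 reads against 0, 0 and 1. The log2 fold change was 5.87 ± 0.75 in NPCs (edgeR adjusted p = 1.58e-03) and the cortex ratio of read rates was 135 (95% counting interval 23.7 to 5400). The 3′ LTR of this locus, IAP1-MM_LTR_dup181 (chr7:34095633-34095923), was called in NPCs with 18 to 66 reads against 0 and 1. Scgb1b30 itself was too low to be tested, at 0.33 to 1.82 CPM in the KO NPCs and 0 to 0.10 CPM in the controls.

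The sixth, IAP1-MM_I-int_dup462, had 86, 27, 19, 24, 25 and 13 reads in the KO NPCs and 0 in the controls, and 20, 23 and 21 reads against 1, 2 and 4 in the cortex (log2 fold change 3.59 ± 0.47). In NPCs its call, like that of IAP1-MM_LTR_dup137, was lost without either control (adjusted p 0.0933 and 0.0937 for dup462, and 0.0996 and 0.103 for dup137, by edgeR).

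A further 2 copies stood out among the NPC calls by fold. IAPEY4_I-int_dup345 (chr10:79413253-79416675, minus strand) overlaps an exon of the lincRNA Gm47015 on the same strand. It had 27, 68, 25, 41, 24 and 16 reads in the KO cultures and 0 in the controls, at least 12.8-fold higher. Gm47015 was upregulated in NPCs and in cortex (edgeR adjusted p = 0.0310 and 2.13e-03), and in the KO cortex the copy had 7, 12 and 7 reads against 0, too few for the test. IAPLTR3-int_dup1697 (chr13:61941368-61943901, plus strand, intergenic) differed between cultures of the same guide, with 11 and 113 reads with g3, 38 and 133 with g4, and 19 and 50 with g13, against 0 in the controls. It was at least 24.3-fold higher, and had no read in the cortex. Its call was lost when any of 5 single libraries was left out, the controls included (edgeR adjusted p 0.0541 to 0.231).

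In the cortex the calls ranged from copies with no control reads to copies that were already transcribed. IAP1-MM_I-int_dup72 (chr4:8884954-8886098, minus strand, intergenic) had 80, 94 and 107 reads against 0 in all controls, at least 44.1-fold higher. It also had 11 to 115 reads against 0 in NPCs, where it did not pass the threshold (edgeR adjusted p = 0.0529). IAP1-MM_I-int_dup138 (chr6:71035455-71038203, minus strand) had 46, 48 and 44 reads against 0, at least 21.2-fold higher. IAPEz-int_dup1208 (chr3:51616815-51623138, plus strand) had 310, 311 and 211 reads against 7, 0 and 5, a log2 fold change of 6.54 ± 0.28. In NPCs it had 0 to 4 reads in the KO cultures and 2 and 0 in the controls, so the groups overlapped there.

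IAPLTR1a_Mm_dup794 (chr8:115287417-115287754, plus strand) is a 3′ LTR in an intron of Wwox, an oxidoreductase gene on the same strand. It had 272, 257 and 207 reads in the KO cortex against 33, 25 and 21, a log2 fold change of 3.69 ± 0.19, and 0 reads in all NPC libraries. On chromosome 3 the neighbouring rows IAPEz-int_dup1118 and IAPEz-int_dup1120 (chr3:21013903-21014685 and chr3:21015032-21017750) of a single provirus were transcribed in the control cortex too, at 4.06 to 5.06 and 5.81 to 6.92 CPM, and rose to 12.4 to 15.3 and 13.2 to 15.5 CPM in the KO (log2 fold change 1.63 ± 0.16 and 1.19 ± 0.15). The smallest log2 fold change among the 54 calls was 0.73, of IAPEz-int_dup5036. In 53 of the 54 every KO library was above every control, the exception being IAPEz-int_dup5642.

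As a description of where the extra reads lay, mean summed IAP levels were 295 CPM higher in the KO cortex, of which the 54 called copies held 52.6%, and 211 CPM higher in the KO NPCs, of which the 15 called copies held 16.5%. Without the g3 culture of the first series the NPC value was 125 CPM, of which they held 24.7%. In the g3 culture of the first series the copy IAPEz-int_dup4973 was at 80.7 CPM, and at a mean of 13.4 in the other KO cultures, which is 13.0% of the excess of that culture.

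Summed over the 15 NPC copies, which were chosen in NPCs, the level was 27.8, 33.8 and 42.8 CPM in the KO cortex and 0.14 to 0.44 CPM in the control cortex. For comparison the KO NPCs had 24.0 to 56.3 CPM and their controls 0.11 and 0.40. In the 18 libraries of adult neuronal nuclei the same sum was 0 to 1.73 CPM, from 0 to 19 reads. In none of the 3 neuronal experiments did the KO libraries all exceed the controls. The 54 cortex copies summed to 35.6 to 97.3 CPM in the KO NPCs against 13.5 and 17.7, without overlap, with the same g3 culture again the highest and the next at 50.6. In neuronal nuclei they summed to 51.8 to 88.1 CPM over all libraries, with KO and control overlapping or the control higher.

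**Figure D3:**
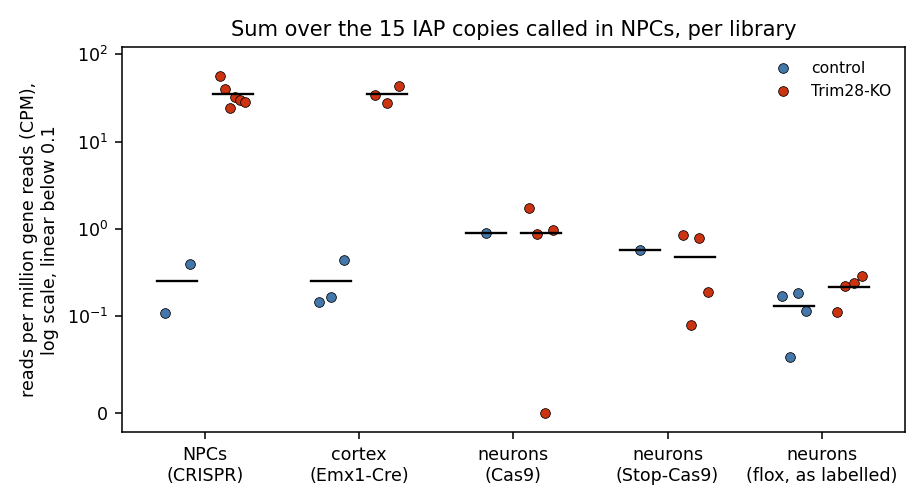
CPM of gene reads summed over the 15 IAP copies called in NPCs, on a log scale that is linear below 0.1, with 1 point per library. KO NPCs (24.0 to 56.3 CPM) and KO cortex (27.8 to 42.8 CPM) lie far above their controls, and all 18 libraries of neuronal nuclei lie at 1.73 CPM or less; the NPC points were used to choose the copies.

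Reads that match several copies gave a wider view of each subfamily. The TEtranscripts counts share such reads among copies, and are given here as CPM of all TE reads. Of the 21 IAP names tested in the cortex 11 were upregulated, where 3.92% of 739 TE subfamilies were, and of the 22 tested in NPCs 4 were upregulated, where 1% of 800 were. No IAP name was called downregulated in either (0% of all names). At an unadjusted p under 0.05, 15 names were higher in cortex (8.12% of all) and 7 in NPCs (5.5%), and 0 were lower in either (4.19% and 3%).

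From these shared reads IAP1-MM_I-int had the largest log2 fold change of the IAP names tested in the cortex, and rose from 71.5 to 103 CPM in the controls to 2293, 2537 and 3405 CPM in the KO (log2 fold change 4.93 ± 0.18). With uniquely mapped reads summed per name its cortex log2 fold change was 1.57 ± 0.12, still called but the fifth of 22 names, behind IAP1-MM_LTR at 3.33 ± 0.18. In NPCs it was at 87.0 and 251 CPM in the controls and at 1102 to 3533 CPM in the KO cultures, with a median of 1865 (log2 fold change 3.55 ± 0.54, edgeR adjusted p = 9.55e-03). In NPCs the unique-read log2 fold change was 1.16 and did not pass the test (edgeR adjusted p = 0.0864). The matching LTR name, IAP1-MM_LTR, went from 50.3 to 96.1 CPM to 342 to 631 CPM in the cortex (2.76 ± 0.26) and from 33.6 and 68.0 to 226 to 788 CPM in NPCs (3.31 ± 0.61, adjusted p = 0.0311). Without the NPC control of the first series the internal name lost its call (edgeR adjusted p = 0.117), and the LTR name lost it without either control or without the g3 or g4 culture of the second series (adjusted p 0.0646 to 0.366).

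IAPLTR4_I was called in both experiments from few reads, 7 to 36 per KO NPC culture against 1 and 1, and 21 to 28 per KO cortex against 1 to 3 (log2 fold change 3.79 ± 0.68 and 4.19 ± 0.40). Its NPC call was lost without either control or without the g3 or g4 culture of the second series (edgeR adjusted p 0.0561 to 0.292). IAP-d-int was the most even in NPCs, at 186 to 226 CPM in the KO cultures against 64.8 and 68.7 (1.59 ± 0.15, edgeR adjusted p = 2.97e-04), and rose in the cortex from 217 to 234 to 531 to 599 CPM (1.31 ± 0.10). IAPLTR3-int rose in the cortex from 115 to 160 to 601 to 635 CPM (2.18 ± 0.13). In NPCs it was at 59.0 to 408 CPM in the KO cultures against 7.91 and 13.7, without overlap, but the test was not passed (adjusted p = 0.163).

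IAPEz-int, the most abundant name, was called in the cortex, at 51867 to 58766 CPM against 32721 to 35660 (0.68 ± 0.05). Its LTR name IAPLTR1_Mm rose there too (0.87 ± 0.06), although with unique reads alone the LTR did not pass (0.42, adjusted p = 0.0716). In NPCs IAPEz-int was at 13815 to 20464 CPM in 5 KO cultures, 44860 CPM in the g3 culture of the first series and 16252 and 17162 CPM in the controls, so the groups overlapped (0.34 ± 0.41, edgeR adjusted p = 0.899). The other names called in the cortex were IAPLTR4 (3.57), IAPEY3C_LTR (3.10), IAPEY3-int (1.72) and IAPLTR2a2_Mm (1.30, and 0.48 with an adjusted p of 0.0568 from unique reads).

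**Figure D4:**
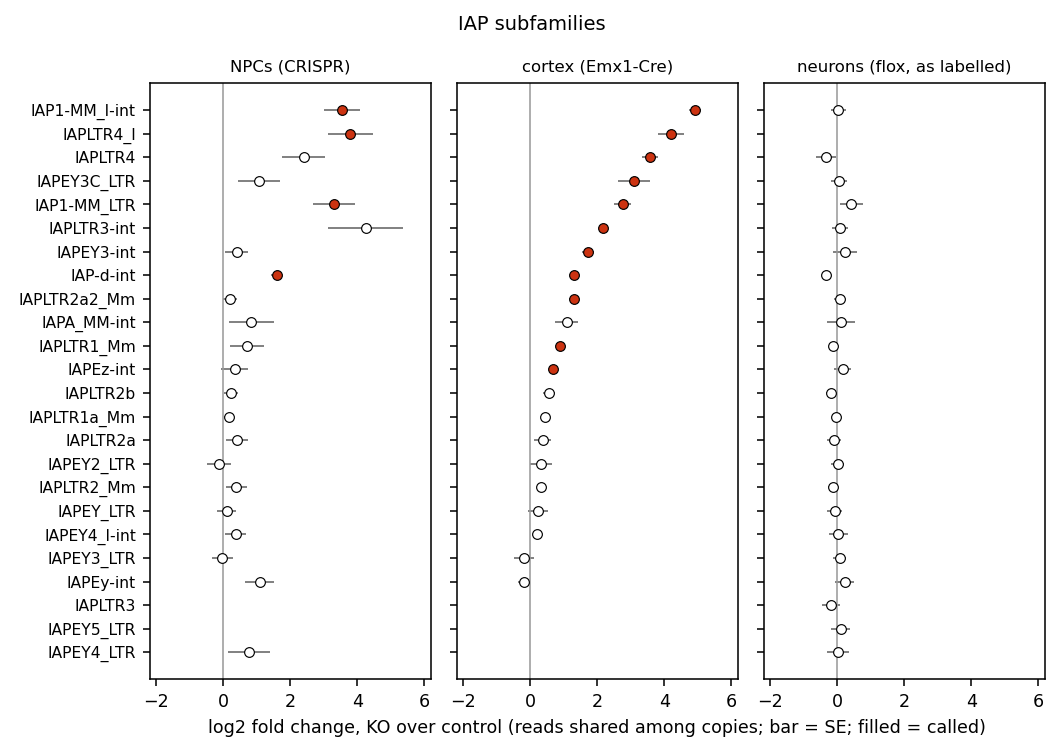
Log2 fold change (KO over control) of each IAP name tested from reads shared among copies, with the SE as a bar and filled points for names that were called, in 3 panels for NPCs, Emx1-Cre cortex and Trim28-flox nuclei as labelled. IAP1-MM_I-int, IAP1-MM_LTR and IAPLTR4_I stand above 2.7 in NPCs and cortex, and no name is called in the flox panel.

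In the adult neurons few or no IAP copies were called. In the Trim28-flox nuclei 202 copies were tested and 0 were called by edgeR or by DESeq2 (0% of all TE copies were called higher and 0.00641% lower in the libraries labelled KO). At an unadjusted p under 0.05 there were 2 higher (0.605% of all) and 1 lower (0.912%) in those libraries. In 3 copies every library labelled KO was above every control (0.925%) and in 3 below (0.763%). No IAP name was called (0% of names). At an unadjusted p under 0.05, 0 names were higher (0.791%) and 1 lower (2.15%) in the libraries labelled KO. The lower name was IAP-d-int, named here after its values were seen, at 145 to 182 CPM in the libraries labelled KO, in which Trim28 was high, and 197 to 243 CPM in those labelled control, in which Trim28 was low. The groups did not overlap, but the difference did not pass the test (log2 fold change -0.33 ± 0.14, edgeR unadjusted p = 0.0415, adjusted p = 1.00). Over all names, fitted log2 changes in the direction of the labels ran from -0.35 to 0.42. In Stop-Cas9-GFP nuclei 0 of 494 copies were called by edgeR or DESeq2 (0.0114% of all were called higher and 0.000881% lower). At an unadjusted p under 0.05, 5 were higher (1.61% of all) and 2 lower (0.237%). Every KO library was above the single control in 57 copies (12.9%) and below it in 72 (13.9%). None of the 25 names was called (0%), and at an unadjusted p under 0.05 0 were higher (2.25%) and 0 lower (0.613%). Trim28 mRNA did not pass the test there, as given above.

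In Cas9-GFP nuclei 3 of 456 copies were called (0.163% of all were called higher and 0.00379% lower). At an unadjusted p under 0.05, 49 were higher (7.91% of all) and 8 lower (1.5%). Every KO library was above the single control in 111 copies (22%) and below it in 83 (18.6%). Of the 3, 2 lie in an exon of Kdm5d on chromosome Y, a histone demethylase gene. IAPEY3-int_dup870 (chrY:953297-955273) was at 68.7 (g3) and 55.0 (g13) CPM in 2 KO libraries and at 0 in the other 2 and in the control, and IAPEY3-int_dup872 (chrY:955751-956483) was also at 0 in those 3, so neither separated KO from control. IAPEY3-int_dup870 also ran from 0 to 71.0 CPM in the Stop-Cas9-GFP KO libraries, and from 0 to 26.0 CPM in the flox libraries. Chromosome Y holds 5394 of the 28733 IAP copies, and their reads are part of the summed IAP values. The sex of the animals entered no test. The third, IAPEz-int_dup5463 (chr13:43387132-43392095, plus strand), overlaps an exon of Sirt5, a deacylase gene, with 39 to 62 reads in the KO libraries and 0 in the control. In Stop-Cas9-GFP nuclei it had 44 to 82 reads in the KO libraries and 39 in the control. When both lines were fitted together 0 copies were called. None of the 24 names tested was called (0%), with 5 higher (6.6%) and 1 lower (3.3%) at an unadjusted p under 0.05. With gene library sizes 3 names were called and with unique reads 4, but the share of all TE names called under these settings was not computed.

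Of the 54 copies called in the cortex, 11 were tested in Cas9-GFP, 14 in Stop-Cas9-GFP and 6 in Trim28-flox nuclei, and 0 were called in each. A call in cortex or NPCs and none in neurons does not show that the effects differ, so the difference was tested on unique reads summed per name, in a joint fit of the 32 libraries over TE names that included all 25 IAP names. Compared with the effect between the libraries as labelled in the Trim28-flox nuclei, the KO effect was larger in NPCs for IAP1-MM_LTR (difference of log2 fold changes 2.76 ± 0.61, edgeR adjusted p = 0.0166) and IAPLTR3-int (3.24 ± 0.56, adjusted p = 8.28e-04), where 0.59% of names were called. It was larger in the cortex for IAP1-MM_LTR (2.79 ± 0.59, adjusted p = 6.21e-03) and IAPLTR1a_Mm (1.25 ± 0.22, adjusted p = 6.84e-04), where 0.943% were. The reads of IAPLTR1a_Mm include those of IAPLTR1a_Mm_dup794, given above, with a mean of 1.16 CPM in the control cortex and 15.0 CPM in the KO. How much of the difference rests on that copy was not computed. From shared reads this name was not called in the cortex, at 1060 to 1216 CPM in the KO against 768 to 897 CPM. In this fit the flox effect as labelled was 0.47 ± 0.38 for IAP1-MM_LTR, 0.15 ± 0.31 for IAPLTR3-int and -0.07 ± 0.14 for IAPLTR1a_Mm, and none of the 3 passed the test. Because Trim28 goes against the labels there, the contrasts were also computed with the flox labels exchanged, an alternative added after seeing the data. The same names were called. For IAP1-MM_LTR the differences became 3.70 ± 0.62 in NPCs and 3.73 ± 0.59 in cortex, for IAPLTR3-int in NPCs 3.53 ± 0.56 and for IAPLTR1a_Mm in cortex 1.11 ± 0.22 (edgeR adjusted p between 9.36e-05 and 3.55e-03).

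Against Cas9-GFP and Stop-Cas9-GFP nuclei the NPC effect was larger for IAPLTR3-int (3.36 ± 0.65, edgeR adjusted p = 5.06e-03, and 3.13 ± 0.65, adjusted p = 0.0105; 0.354% of names in each). Without the NPC control of the second series the first of these, and without either control the second, was not called, and against the flox nuclei 1 of the 2 NPC differences was left without either control. For the cortex 0 IAP names differed from either line (0.354% of names in each), and 0 differed between NPCs and cortex (0.236%). These counts depended on the reads and the tool. With TEtranscripts counts 5 names differed between cortex and Cas9-GFP and 2 between cortex and Stop-Cas9-GFP nuclei, and DESeq2 gave 1 for cortex against Cas9-GFP nuclei and 1 for NPCs against cortex. How many of all TE names differed in these alternatives was not computed. IAP1-MM_I-int passed no contrast in this fit, with differences of 1.15 ± 0.45 for NPCs and 1.55 ± 0.44 for cortex against the flox nuclei (adjusted p = 0.512 and 0.0903).

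Genes known to act in IAP silencing were described as a group of 21, among them Setdb1, its partner Atf7ip, the maintenance methyltransferase Dnmt1 with its cofactor Uhrf1, the HP1 genes Cbx1, Cbx3 and Cbx5, Atrx and Daxx. Only Trim28 was called among those tested in NPCs (0.176% of genes were called higher and 0.0182% lower) and in cortex (0.86% and 0.467%), where it was lower, and in the flox nuclei (0.0117% higher and 0.0292% lower), where it was higher in the libraries labelled KO. None was called in the Cas9-GFP or Stop-Cas9-GFP nuclei (0% of genes). Setdb1 had log2 fold changes of 0.10 in NPCs and 0.16 in cortex, and Dnmt1 of -0.03 and -0.06.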

How the data were processed

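RNA-seq libraries were made from polyadenylated RNA with a stranded kit. Per the labels and the study's methods, the authors mapped reads with STAR 2.6.0 to GRCm38.p6 and deposited counts: featureCounts (Subread 1.6.3) counts of uniquely mapped, strand-specific reads on genes and, in a separate table, on single TE copies, and TEtranscripts counts per subfamily, in which reads that match several copies are shared. A read in an exon that contains a TE can stand in both the gene and the TE table, and reads of a copy inside an exon on the same strand cannot be told from those of the gene. In the tables, 6 columns of per-sample values match no sample and were not used. Of 38 samples, the 6 CUT&RUN and single-nucleus samples were not used here.

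The counts as deposited were tested per experiment with edgeR 4.0.16 (quasi-likelihood, filterByExpr, TMM factors; R 4.3.3), with gene library sizes for copies and TE library sizes for subfamilies, and p-values were adjusted by Benjamini-Hochberg over all rows. Features counted as called had a log2 fold change beyond 0.5 in either direction together with an adjusted p below 0.05. Summed values were compared by exact permutation tests over libraries. The difference between experiments was tested in a joint edgeR fit. The fits were tested on simulated data. Libraries held 8790346 to 25345083 gene reads, and a floor of 3 counts per library served as the limit for a count of 0; intervals and floors cover counting error only. Nothing in the labels says whether libraries of a group came from separate animals or cultures in every case, so p-values measure the spread between these libraries. GENCODE annotation of the same build gave gene overlaps.

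Beside Trim28, the copies named were chosen per experiment by a rule: the 5 called copies with the largest fold among those with no overlap between groups, the 5 with the highest mean KO level, and copies called in both NPCs and cortex (at most 12), with genes that start within 10 kb. The members and gene lists were chosen with earlier results of these data known. NPC cultures come in 2 number series, each with 1 control and 1 culture per guide. Deviations of KO and control of the same series from their group means correlated over genes at 0.443 to 0.787 in all 6 pairs. With 2 controls, the correlation with the other control is the opposite by construction. The main NPC tests ignored this pairing, and the series entered a fit only as the replicate block among the alternatives. Alternatives were DESeq2 1.42.0, other library sizes, factors, filters and fold thresholds, unique in place of shared reads, exon-overlapping copies left out, the replicate block, and leaving out each library.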

Additional observations from a re-analysis of the deposited data

Results flagged for a closer look

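Among the 6 KO NPC cultures, the g3 culture of the first series stood far above the others in 4 IAP measures, with a gap to the next culture beyond Dixon's critical value. Its summed IAP level was 962 CPM and the next 534, the sum over the copies called in cortex was 97.3 CPM and the next 50.6, IAP1-MM_I-int from shared reads was 3533 CPM and the next 2001, and IAPEz-int was 44860 CPM and the next 20464. The same rule set apart IAPLTR4_I in the g13 library of the Cas9-GFP nuclei, at 12.6 CPM of TE reads from 16 reads, while the next KO library was at 3.17 CPM and the control at 11.8 CPM. Of 43 groups tested 5 were set apart, where chance gives about 1 in 20. Because 4 of the 5 are the same culture in measures that share reads, they are not separate events and the count cannot be set against that rate.

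Differences of the KO effect between experiments that passed the joint test were those of IAP1-MM_LTR (2.76 in NPCs and 2.79 in cortex, each minus the flox nuclei as labelled), IAPLTR3-int (3.24 in NPCs minus flox nuclei, 3.36 minus Cas9-GFP nuclei and 3.13 minus Stop-Cas9-GFP nuclei) and IAPLTR1a_Mm (1.25 in cortex minus flox nuclei), all on the log2 scale.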

How the results depend on the processing

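The NPC count of 15 called copies was 27 with DESeq2, 25 with a filter of at least 10 reads, 32 with the number series as a replicate block, and 6 to 23 when single libraries were left out; the 4 called names became 1 to 4 without single libraries and 5 with the block, and the block moved no other count by over 1.5 times. The summed NPC difference of 0.65 ran from 0.46 to 0.75. In cortex the 54 calls became 125 with at least 10 reads and 52 to 64 without single libraries, the 11 names 11 to 12, and the summed difference 0.79 to 0.87. In Cas9-GFP nuclei the 3 calls became 0 without exon-overlapping copies, 1 without chromosome Y (an alternative added after seeing the data), 0 with both lines in 1 fit and 2 to 5 without single libraries, the 0 names became 3 with gene library sizes, 4 with unique reads and 0 to 2 without single libraries, and the summed difference ran from 0.29 to 0.39. In Stop-Cas9-GFP nuclei 0 to 1 copies were called without single libraries, and the summed difference of -0.03 was 0.11 for LTRs alone and -0.13 to 0.02 without single libraries, with a changed sign at 0.021 (without g3) and 0.01 (without g3g4g13). In the flox nuclei the summed difference of 0.09 was -0.033 for LTRs alone and 0.05 to 0.15 without single libraries. For these alternatives the shares called over all TE copies and names were not computed.

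The count of IAP names whose effect differed between experiments became, with TEtranscripts counts joined, 5 for cortex minus Cas9-GFP, 6 for cortex minus flox, 2 for cortex minus Stop-Cas9-GFP, 4 for NPCs minus flox and 2 for NPCs minus Stop-Cas9-GFP. With DESeq2 it was 1 for cortex minus Cas9-GFP, 4 for cortex minus flox and 1 for NPCs minus cortex. Without single libraries (added after seeing the data) it was 0 to 1, 2 to 3 and 0 to 1 for cortex minus Cas9-GFP, flox and Stop-Cas9-GFP, 0 to 1, 1 to 3 and 0 to 1 for NPCs minus the same, and 0 for NPCs minus cortex. With the flox labels exchanged (added after seeing the data) it was 2 for cortex (0.59% of all names) and 2 for NPCs (0.708%) minus flox, as before. The causes were not tested, and except for the exchanged labels the share of all names called was not computed. No named copy or name changed direction under any alternative run. With 2 NPC controls and 1 control in each Cas9 line, control spread limits these tests, and copies with few unique reads could not be tested.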

Other observations

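In the g3 NPC culture of the first series the extra IAP reads lay mostly on IAPEz-int copies, which held 81.1% of its excess over the mean of the other KO cultures, and IAP1-MM_I-int copies held 13.7%. After IAPEz-int_dup4973, the next were IAPEz-int_dup4974 (28.9 CPM against a mean of 4.72 in the other KO cultures), IAPEz-int_dup4992 (23.9 against 3.21) and IAPEz-int_dup4762 (19.0 against 2.40). These copies were chosen for their values in that culture.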
